A study of Mus musculus with 71 samples.

Results

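The genes described here were 10 heat shock proteins and cochaperones, Hspa1a, Hspa1b, Hspa8, Hspa5, Hsph1, Hsp90aa1, Dnajb1, Dnaja1, Bag3 and Hspb1, out of 37681 genes listed in 6 tables of RNA-seq from the mouse brain. They were chosen by symbol for their function, with no measured value in the rule, and each symbol was found in all 6 tables. The mice were C57BL/6 (C57BL/6J) and wild type throughout, both sexes were used, and every animal was trained with food, fitted with a jugular catheter and allowed to self-administer either cocaine or saline intravenously in daily sessions. Tissue punches of the nucleus accumbens (NAc), the ventral tegmental area (VTA) and the prefrontal cortex (PFC) were taken 1 or 28 days after the last session, so that no group was free of surgery, training or handling, and the saline mice were the controls. This gave 12 groups, which held 6 libraries each except the saline VTA group at 28 days, which held 5, or 71 libraries in all.

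Heat shock proteins are molecular chaperones that bind unfolded or aggregating proteins and help them fold, assemble or reach the proteasome. HSP70 proteins work in a cycle in which J-domain proteins deliver clients and start ATP hydrolysis, and nucleotide exchange factors such as HSP110 and BAG proteins release them, while HSP90 acts on later folding steps of kinases and steroid receptors. In neurons the constitutive forms are abundant and serve synaptic vesicle cycling among other tasks, whereas the inducible forms are kept low until heat shock factor 1 binds the heat shock elements of their promoters.

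The proximal promoters are shown first because they carry the letters by which the inducible members are known to be controlled, and because they show how alike the 2 inducible HSP70 genes are. RefSeq windows on GRCm38.p6, from 250 bases before to 50 bases after a transcription start, were found for 8 of the 10 members, in 12 windows, with no entry for Hspa8 or Hsp90aa1. The capitals mark GAANNTTC, 2 inverted units of a heat shock element, which reads the same on both strands, except in Hspa5, where they mark the ER stress element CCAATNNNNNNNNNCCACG, searched on both strands. Each run is 80 bases long, 5′ to 3′ on the strand of the gene.
Hspa1a, chr17:34972201-34972280, minus strand: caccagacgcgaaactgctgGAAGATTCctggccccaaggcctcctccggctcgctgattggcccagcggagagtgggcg
Hspa1b, chr17:34959283-34959362, minus strand: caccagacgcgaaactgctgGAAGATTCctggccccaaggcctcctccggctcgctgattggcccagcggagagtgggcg
Hspb1, chr5:135887782-135887861, plus strand: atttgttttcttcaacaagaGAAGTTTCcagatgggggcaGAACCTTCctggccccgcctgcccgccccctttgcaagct
Dnaja1, chr4:40722324-40722403, plus strand: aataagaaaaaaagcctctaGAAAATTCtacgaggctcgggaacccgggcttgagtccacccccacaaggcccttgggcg
Hspa5, chr2:34772005-34772084, plus strand: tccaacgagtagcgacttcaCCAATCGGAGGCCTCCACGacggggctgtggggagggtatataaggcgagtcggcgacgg

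The 2-unit letters lay in the 250 bases upstream of the start in 4 of the 12 windows, which belonged to 4 members, against 6.69% of all 32851 windows. They began 104 bases before the start in both Hspa1a and Hspa1b. The 3-unit form GAANNTTCNNGAA was in 0.466% of all windows and in 0 of the members' windows, and the ER stress element was in 0.113% of all windows and began 65 bases before the start of Hspa5. These matches describe the letters of a short window only. The whole windows of Hspa1a and Hspa1b were identical at 296 of 300 bases, or 98.7%, and 59.4% of the 50-base words of the Hspa1a transcript were also in that of Hspa1b. In mm9, the build of the deposited tables, Hspa1b (ENSMUSG00000090877) spans chr17:35093381-35096183 and Hspa1a (ENSMUSG00000091971) spans chr17:35106144-35109069, both on the minus strand, with Hspa1l on the plus strand from base 35109648. How reads that fit both genes were counted is not given in the sources used here, so the separate values of the pair are uncertain.

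The libraries held 20971967 to 49700932 reads in genes. Summed markers of striatal medium spiny neurons lay between 3195 and 7420 CPM in the NAc, those of midbrain dopamine neurons between 1515 and 6743 CPM in the VTA, and those of cortical excitatory neurons between 1413 and 2319 CPM in the PFC, each above every library of the other regions. Within the PFC 1 library, saline at 28 days, had 2629 CPM of the striatal markers where the other 23 had 170 to 273. In the VTA, the summed level of 8 markers of mural and meningeal cells differed widely between libraries. In this sum 2 cocaine libraries at 1 day (944 and 1711 CPM) and 1 saline library at 28 days (1841 CPM) stood above 900 CPM. The 8 markers did not vary alike, since at 1 day Igf2 ran from 24.7 to 882 CPM but Rgs5 only from 116 to 160 CPM. None of the 175 pairs of libraries from the same group was identical, and their chi-square per degree of freedom over genes was at least 4.38, above the 1 that counting noise alone gives.

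The levels of the 10 members differed widely. On the RPKM scale, read counts scaled to transcript length and library size, Hspa8, the constitutive cytosolic HSP70 that also uncoats clathrin vesicles, had group means between 392 (NAc, saline, 28 days) and 676 (VTA, saline, 1 day). Hsp90aa1, the stress-responsive HSP90 of the cytosol, followed with saline means of 180.5 ± 21.4 (SD, n = 6) in the NAc at 28 days to 330.4 ± 19.1 in the VTA at 1 day. Hspa5 (BiP), the HSP70 of the endoplasmic reticulum and a sensor of unfolded protein there, had saline means of 81.0 to 112 RPKM.

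Hsph1, the HSP110 nucleotide exchange factor, had saline means between 48.5 and 69.8 RPKM. Dnaja1 and Dnajb1, the HSP40 partners of HSP70, lay at 30.6 to 40.4 RPKM and 20.7 to 31.3 RPKM. These 6 abundant genes kept the same order in all 6 saline groups, and the libraries of Hspa8, of Hsp90aa1 and of the rest did not overlap in any of these groups, whereas Hspa5 and Hsph1 overlapped in the NAc at both times. Bag3, which links HSP70 to selective autophagy, and Hspb1 (HSP27), a small heat shock protein that holds unfolded proteins and stabilises actin, were lower, with saline means of 1.70 to 9.69 RPKM and 1.64 to 12.4 RPKM. Hspa1a and Hspa1b, the inducible HSP70 pair, were the lowest members, with saline means of 0.415 to 2.38 RPKM for Hspa1a and 0.194 to 2.11 RPKM for Hspa1b. They were near the lower limit of detection at 1 day, with 5 to 21 reads of Hspa1b per saline VTA library. At 28 days the saline VTA libraries held 53 to 281 reads of Hspa1b.

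**Figure D1:**
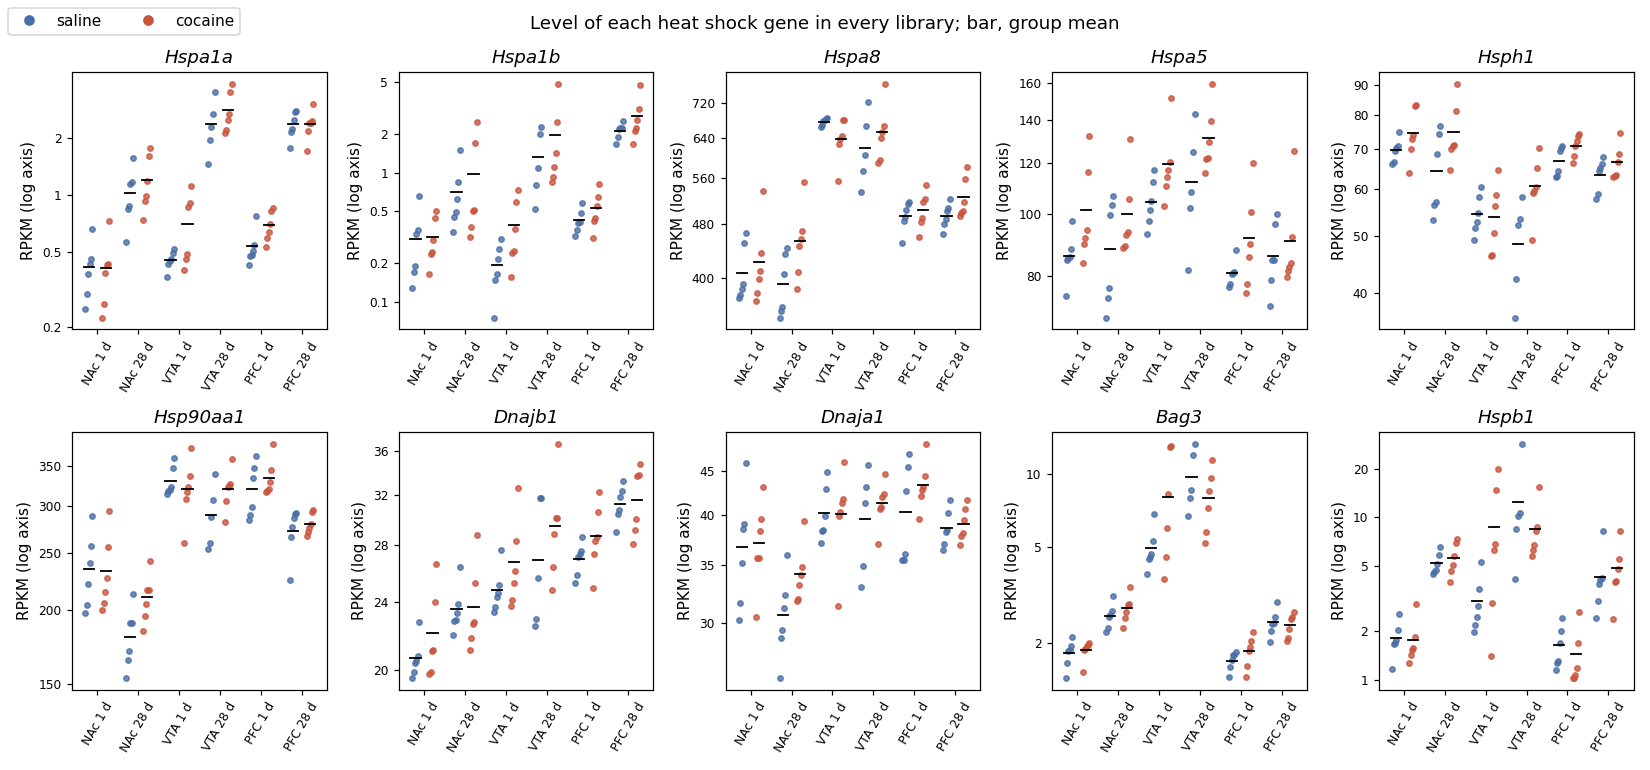
Level of each of the 10 genes in every library (RPKM, log axis) by region and days of abstinence, saline in blue and cocaine in red, with a bar at each group mean. The saline and cocaine points overlap in every region and at both times, and Bag3 and Hspb1 sit highest in the VTA.

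The scatter between libraries of a group was wide for the inducible pair and Hspb1. The within-group SD of Hspa1b on the log2 scale was between the 90.9th and the 99.5th percentile of all genes tested in each of the 6 tables, that of Hspa1a between the 75.0th and the 94.5th, and that of Hspb1 between the 78.3rd and the 98.7th. In the VTA Bag3 scattered more than Hspa1a, at the 93.6th against the 87.5th percentile at 1 day and the 82.7th against the 81.0th at 28 days. Hspa8 was between the 9.90th and the 53.5th. These percentiles are over genes of all levels, and few reads widen the scatter of low genes. Saline NAc libraries at 1 day held 11 to 45 reads of Hspa1b and 28 to 65 of Hspb1. The part of counting noise in this scatter was not tested. Whether each library is a separate animal is not stated in the labels, so p-values measure the spread between these libraries.

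At 28 days 1 cocaine column stood apart for these genes. The columns of the 28-day tables carry numbers that do not match those of the labels, and the cocaine column numbered 3 held the highest level of the cocaine group in 21 of 30 combinations of gene and region. Hspa1b measured 2.45 RPKM there in the NAc (0.318 to 1.69 in the other 5 columns), 4.87 in the VTA (0.849 to 2.46) and 4.78 in the PFC (1.65 to 3.09). The same column was highest in all 3 regions for Hspa1a and for Hspa5 as well, and the column numbered 6 was second for Hspa1b in each region. Whether equal numbers mean the same animal is not given in the sources used here. Several results below are also given without the column numbered 3, but others, such as Hsph1 in the NAc and Hspa5 in the VTA, are not.

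Cocaine against saline was compared in each region at each time, which asks whether the genes differ in early or in late abstinence. No member passed an adjusted p of 0.05 in any of the 6 comparisons, by edgeR's quasi-likelihood test on the count tables or by limma on the RPKM tables (VTA and PFC at 1 day). Of the 60 combinations of gene and comparison, 58 could be tested, since Hspa1b fell under the mean of 0.5 RPKM required in the VTA and PFC at 1 day. Unadjusted p was under 0.05 in 6 of the 58 and the lowest adjusted p was 0.317, and DESeq2 called 0 members as well. The saline and cocaine libraries overlapped for every member in every comparison, and overlap was not counted over all genes. Of the fitted log2 fold changes, 48 of 58 were above 0, with a median of 0.09.

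The shares of all genes that passed were as small. In the NAc at 1 day 0 of 10 members passed against 0.0126% of 15878 genes, with 1 member at an unadjusted p under 0.05 (4.01% of all genes), and at 28 days 0 of 10 against 0% of 16295, with 3 such members (6.76%). In the VTA at 1 day 0 of 9 passed against 0.0665% of 15042, with 1 at an unadjusted p under 0.05 (15.7% of all genes), and at 28 days 0 of 10 against 0% of 16937, with 1 (11.5%). In the PFC at 1 day 0 of 9 passed against 0.00693% of 14427, with 0 at an unadjusted p under 0.05 (3.78% of all genes), and at 28 days 0 of 10 against 0% of 16340, with 0 (5.66%). Where a p from permutation is given below it is from the exact two-sided test over all divisions of the libraries, which cannot go below 0.00216 and is not adjusted for the number of genes. It was under 0.05 in 4 of the 60 combinations of gene and comparison, and was not run over all genes. In bulk tissue, fewer cells of a type and less RNA per cell cannot be told apart.

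**Figure D2:**
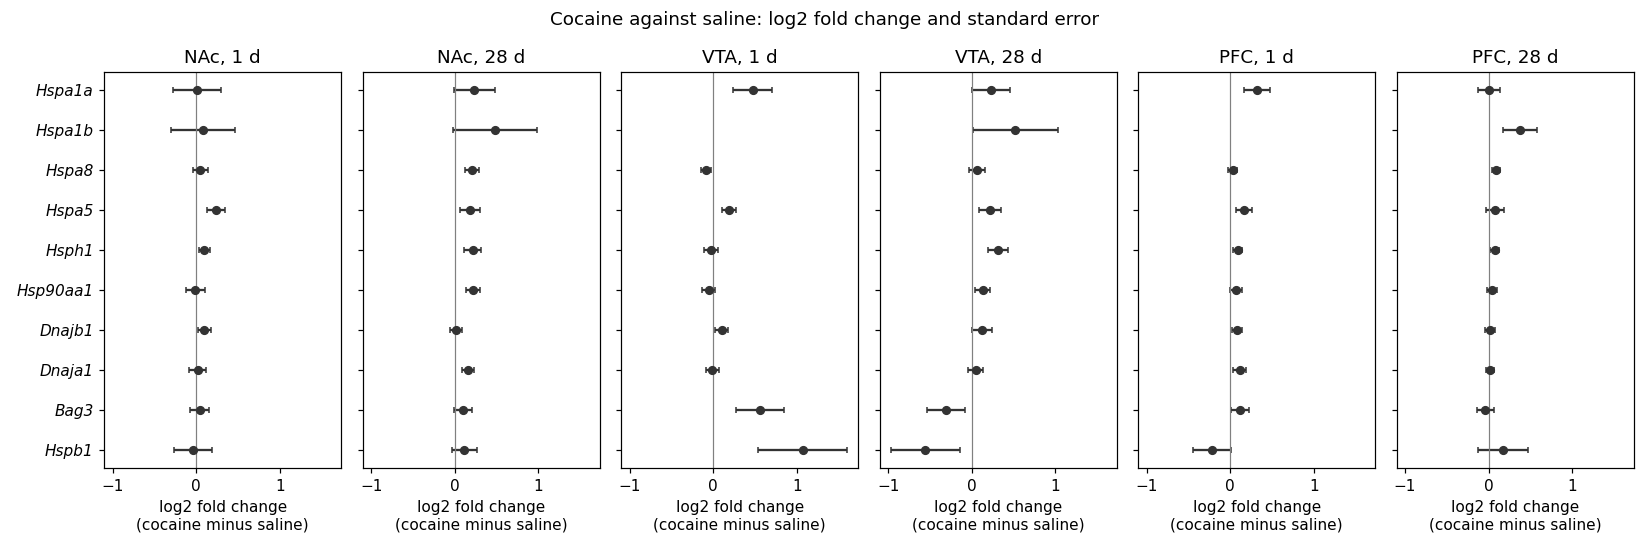
Fitted log2 fold change of cocaine over saline with its standard error for each gene in the 6 comparisons of region and day, from edgeR or, for the VTA and PFC at 1 day, limma. The estimates for the abundant genes lie near 0, and the widest bars belong to Hspa1b at 28 days in the NAc and VTA and to Hspb1 in the VTA at 1 day.

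In the NAc at 28 days all 10 members had fitted differences above 0, from 0.01 to 0.48 on the log2 scale, with a median of 0.19 against 0.0045 over all genes tested. Hsp90aa1 measured 154, 180 and 213 RPKM (lowest, median, highest) with saline and 185, 211 and 242 with cocaine. Each of the 6 cocaine libraries exceeded the mean of the saline group, and 3 exceeded every saline library. The log2 fold change was 0.22 (SE 0.0809, adjusted p = 0.672 by edgeR, exact permutation p = 0.0411).

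Hspa8 measured 350.0, 385 and 442 RPKM with saline and 385, 450.2 and 553 with cocaine in the same tissue. Here 5 of 6 cocaine libraries were above the saline mean and 4 above every saline library, a log2 fold change of 0.21 (SE 0.0859, adjusted p = 0.692 by edgeR, exact permutation p = 0.0541). Dnaja1, which delivers clients to HSP70, measured 25.9, 30.3 and 35.95 RPKM with saline and 31.8, 33.7 and 39.4 with cocaine, a log2 fold change of 0.16 (edgeR, adjusted p = 0.732). Hsph1 differed by 0.21 (edgeR, adjusted p = 0.748). These 4 genes also varied together from library to library, so they are not independent observations of a difference. Hspa1b differed by 0.48, the widest of the members here, but with a 95% interval of −0.59 to 1.55, and it was 0.0015 without the cocaine column numbered 3. Without that column Hsp90aa1 differed by 0.17, Hspa8 by 0.14 and Dnaja1 by 0.12. In the same libraries all 8 oligodendrocyte markers and all 8 endothelial markers were fitted below 0 with cocaine, 2 of each at an unadjusted p under 0.05, as were all 6 markers of cortical excitatory neurons, with 0. Their summed levels with cocaine and saline were 5154 to 6468 and 5988 to 6965 CPM for oligodendrocytes, 260 to 314 and 287 to 364 CPM for endothelium, and 13.01 to 627 and 63.1 to 541 CPM for cortical neurons, and their part in the differences of the members was not tested.

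At 1 day in the NAc 8 members were fitted above 0 and 2 below, all between −0.03 and 0.24 (edgeR, all adjusted p = 1.00). Hspa5 had the largest difference. It measured 74.5, 85.5 and 97.4 RPKM with saline and 84.1, 93.1 and 132 with cocaine, with 2 cocaine libraries above every saline library, and its log2 fold change was 0.24 (SE 0.107, exact permutation p = 0.0844), or 0.15 without cocaine library 6. Hspa1a averaged 0.415 ± 0.145 RPKM with saline and 0.411 ± 0.178 with cocaine (SD, n = 6 each).

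In the PFC the fitted differences lay between −0.22 and 0.32 at 1 day, 8 above 0 and 1 below, and between −0.04 and 0.37 at 28 days, 9 above 0 and 1 below. Hspa1a at 1 day measured 0.429, 0.496 and 0.773 RPKM with saline and 0.532, 0.674 and 0.857 with cocaine, on 34 to 72 reads a library. All 6 cocaine libraries were above the saline mean but only 2 above every saline library, and the log2 fold change, on the log2(RPKM + 0.1) scale, was 0.32 (SE 0.157, adjusted p = 0.913 by limma, exact permutation p = 0.0498). At 28 days the same gene averaged 2.37 ± 0.384 RPKM with saline and 2.37 ± 0.434 with cocaine, and Hspa1b differed by 0.37 (95% interval −0.07 to 0.81, edgeR adjusted p = 0.842), or 0.13 without the cocaine column numbered 3. Adjusted p was at least 0.842 for each member tested in the PFC.

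In the VTA the differences of Hspb1 and Bag3 had opposite signs at the 2 times, and none passed. Hspb1 at 1 day measured 1.97, 2.65 and 5.30 RPKM with saline and 1.39, 6.59 and 19.96 with cocaine, so that 4 of 6 cocaine libraries were above every saline library and 1 was below all of them. The difference on the log2(RPKM + 0.1) scale was 1.07 (SE 0.532, adjusted p = 0.354 by limma, exact permutation p = 0.113). At 28 days the 5 saline libraries held 10.2, 4.17, 10.7, 28.4 and 8.52 RPKM of Hspb1, against 5.78, 7.49 and 15.3 with cocaine, a log2 fold change of −0.56 (edgeR, adjusted p = 0.559).

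Bag3 had the same signs. At 1 day it measured 3.85, 4.601 and 6.81 RPKM with saline and 3.68, 7.12 and 12.9 with cocaine, a difference of 0.56 (SE 0.289, adjusted p = 0.375 by limma). At 28 days its saline libraries held 8.58, 6.68, 7.96, 13.3 and 11.97 RPKM and its cocaine libraries 5.20, 7.84 and 11.3, a log2 fold change of −0.31 (edgeR, adjusted p = 0.561). Hspa1a at 1 day differed by 0.47 (limma, adjusted p = 0.347), or by 0.16 with the sum of the mural and meningeal markers described next as a covariate (adjusted p = 0.810), and without the 2 cocaine libraries above 900 CPM of these markers it fell under the level required for the fit. Hspa1b, which was too low to be fitted, averaged 0.194 ± 0.0822 RPKM with saline and 0.390 ± 0.228 with cocaine (SD, n = 6 each, exact permutation p = 0.0714). Hspa1b at 28 days differed by 0.52 (edgeR, adjusted p = 0.655), and by 0.0022 without the cocaine column numbered 3. Groups overlapped in each case.

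The same libraries held more or less of the mural and meningeal markers, none of which was at 0 in any VTA library. The summed level of the 8 markers at 1 day was 226, 292, 295, 337, 424 and 551 CPM in the saline libraries and 317, 342, 700, 702, 944 and 1711 CPM in the cocaine libraries. At 28 days it was 234, 303, 602, 822 and 1841 CPM with saline and 204, 207, 260, 365, 686 and 769 CPM with cocaine. The cocaine libraries thus held more of these markers at 1 day and fewer at 28 days by their medians, although the groups overlapped at both times. All 8 were fitted above 0 at 1 day, 5 of them at an unadjusted p under 0.05, and all 8 below 0 at 28 days, and none passed an adjusted p of 0.05 (limma and edgeR). Of the 10 microglial markers all were fitted below 0 at both times, with summed levels of 357 to 478 CPM with cocaine and 521 to 710 CPM with saline at 1 day. All 8 endothelial markers were fitted above 0 at 1 day and below 0 at 28 days. All 8 oligodendrocyte markers were below 0 at both times. The dopamine neuron markers were below 0 in 7 of 7 at 1 day and above 0 in 7 of 8 at 28 days. The cortical neuron markers were above 0 in 3 of 3 at 1 day and below 0 in 4 of 5 at 28 days. Apart from the mural and meningeal markers, the part of these lists in the differences was not tested.

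The relation of the members to this sum was not planned and was taken up after the values were seen. It was not computed over all genes or for the other marker lists, so it is not shown to be particular to the members. Across the VTA libraries, centred on group means, Hspb1 went up with the mural and meningeal sum at both times. Its Pearson r was 0.906 at 1 day (n = 12, Spearman rho 0.916, permutation p = 0.00018 and 0.00017, adjusted p = 0.0036 and 0.0034 over 20 relations), and 0.873 without the 2 libraries farthest from the median. At 28 days r was 0.746 (n = 11, rho 0.755, permutation p = 0.00632 and 0.01001, adjusted p = 0.0236 and 0.0299), and 0.731 without 2 libraries. For Bag3 r was 0.848 at 1 day and 0.763 at 28 days (rho 0.797 and 0.745, permutation adjusted p = 0.00593 and 0.0236 for r, 0.0198 and 0.0299 for rho), and 0.705 and 0.770 without 2 libraries.

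For Hspa1b r was 0.721 at 1 day (permutation adjusted p = 0.0236, rho 0.643 with adjusted p = 0.0629) and 0.589 without 2 libraries, and 0.309 at 28 days (adjusted p = 0.441). Hsp90aa1, Dnaja1 and Hspa8 went the other way. Hsp90aa1 had r of −0.637 at 1 day and −0.857 at 28 days (permutation adjusted p = 0.0456 and 0.00593, rho −0.455 and −0.891 with adjusted p = 0.188 and 0.0049), and −0.589 and −0.759 without 2 libraries. Dnaja1 had r of −0.667 and −0.766, and Hspa8 −0.721 and −0.670 (permutation adjusted p between 0.0236 and 0.0456 for r), and −0.501 to −0.624 without 2 libraries. By rho these 2 genes passed at 28 days (adjusted p = 0.0299 and 0.0488) but not at 1 day (0.188 and 0.184). Hsph1 had r of −0.141 at 1 day (permutation adjusted p = 0.695) and −0.687 at 28 days (adjusted p = 0.0412, rho −0.764 with adjusted p = 0.0299, r of −0.586 without 2 libraries). All of these levels are relative to the total of the library.

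**Figure D3:**
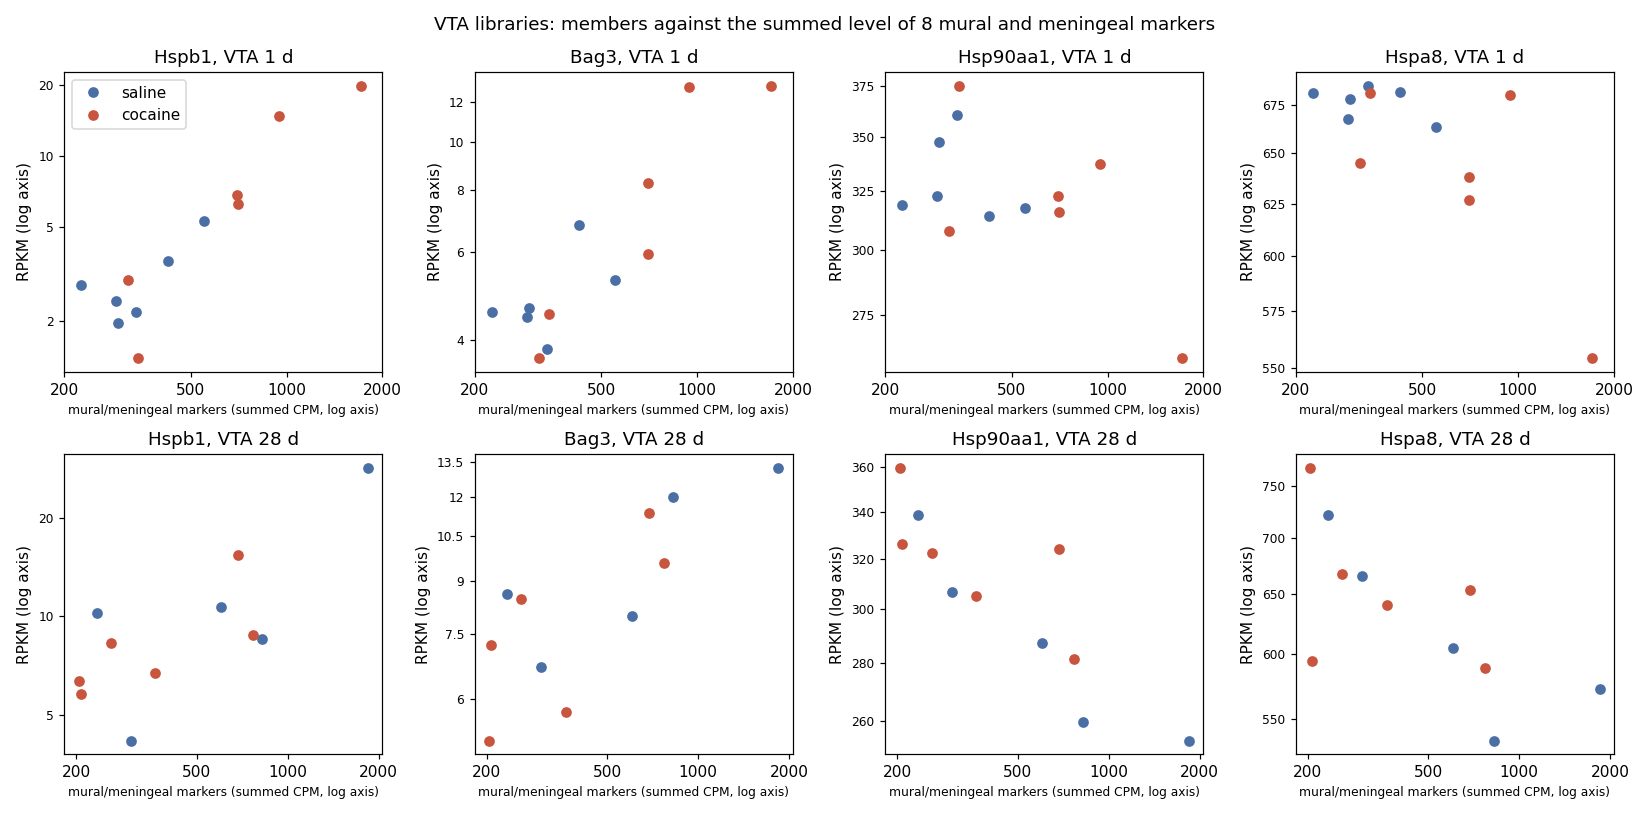
Level of Hspb1, Bag3, Hsp90aa1 and Hspa8 (RPKM, log axis) in each VTA library against the summed level of 8 mural and meningeal markers (CPM, log axis), at 1 day above and 28 days below, saline in blue and cocaine in red. Hspb1 and Bag3 are highest in the libraries with the most marker RNA, whichever the treatment, and Hsp90aa1 is lowest there.

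Without the 2 cocaine libraries above 900 CPM the 1-day difference of Hspb1 in the VTA was 0.34 (limma, adjusted p = 0.738) and that of Bag3 was 0.14 (adjusted p = 0.790). With the log2 marker sum as a covariate the same differences were −0.21 and −0.10 (limma, adjusted p = 0.782 and 0.851), the opposite sign. At 28 days, without the saline library at 1841 CPM, Hspb1 differed by 0.01 (edgeR, adjusted p = 0.992) and Bag3 by −0.16 (adjusted p = 0.803). Both alternatives were chosen after the values were seen.

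Hsph1 was the VTA member with the least overlap at 28 days. Its saline libraries held 58.2, 53.4, 52.1, 42.2 and 36.4 RPKM and its cocaine libraries 49.3, 60.04 and 70.4, so that 6 of 6 cocaine libraries were above the saline mean and 5 above every saline library. The log2 fold change was 0.31 (SE 0.122, adjusted p = 0.408 by edgeR, exact permutation p = 0.0303). It was 0.29 without the cocaine column numbered 3, 0.27 without the library at 1841 CPM and 0.22 with the marker sum as a covariate. At 1 day the difference was −0.03 (limma). Hspa5 differed by 0.19 at 1 day (limma, adjusted p = 0.317, exact permutation p = 0.0584) and by 0.22 at 28 days (edgeR, adjusted p = 0.508), and Hspa8 by −0.09 at 1 day (limma, adjusted p = 0.494, exact permutation p = 0.0411), where 4 of 6 cocaine libraries were below every saline library. Without the 2 cocaine libraries above 900 CPM the 1-day differences were 0.10 for Hspa5 and −0.06 for Hspa8 (limma, adjusted p = 0.542 and 0.626), and with the marker sum as a covariate 0.064 and −0.02 (adjusted p = 0.792 and 0.908). Leaving out cocaine library 3 gave 0.12 for Hspa5 and leaving out cocaine library 6 gave −0.05 for Hspa8.

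Whether the cocaine difference itself changed between 1 and 28 days was tested as an interaction of treatment and time. In the NAc 0 of 10 members passed (0.0181% of 16612 genes did), in the VTA 0 of 9 (0% of 14897) and in the PFC 0 of 9 (0.00701% of 14273), by edgeR or limma. Unadjusted p was under 0.05 for Hsph1 and Bag3 in the VTA, where it was for 13.6% of all genes, and for no other member. In the VTA the differences at 1 day minus those at 28 days were 1.41 for Hspb1 (SE 0.713, limma adjusted p = 0.388), 0.85 for Bag3 (SE 0.392, adjusted p = 0.351) and −0.36 for Hsph1 (SE 0.154, adjusted p = 0.329). Without the 3 libraries above 900 CPM they were 0.31, 0.31 and −0.33.

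More members, and a larger share of all genes, differed between regions than between treatments. Among the saline libraries at 28 days, for which all 3 regions were deposited as counts, 7 of 10 members differed between the NAc and VTA at an adjusted p under 0.05 (edgeR, 62.5% of 17181 genes did), 6 of 10 between the NAc and PFC (40.7%) and 4 of 10 between the VTA and PFC (57.8%). Each region has its own table, so that region and table cannot be told apart. The counts were 7, 6 and 4 again without the VTA library at 1841 CPM and the PFC library with striatal markers.

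**Figure D4:**
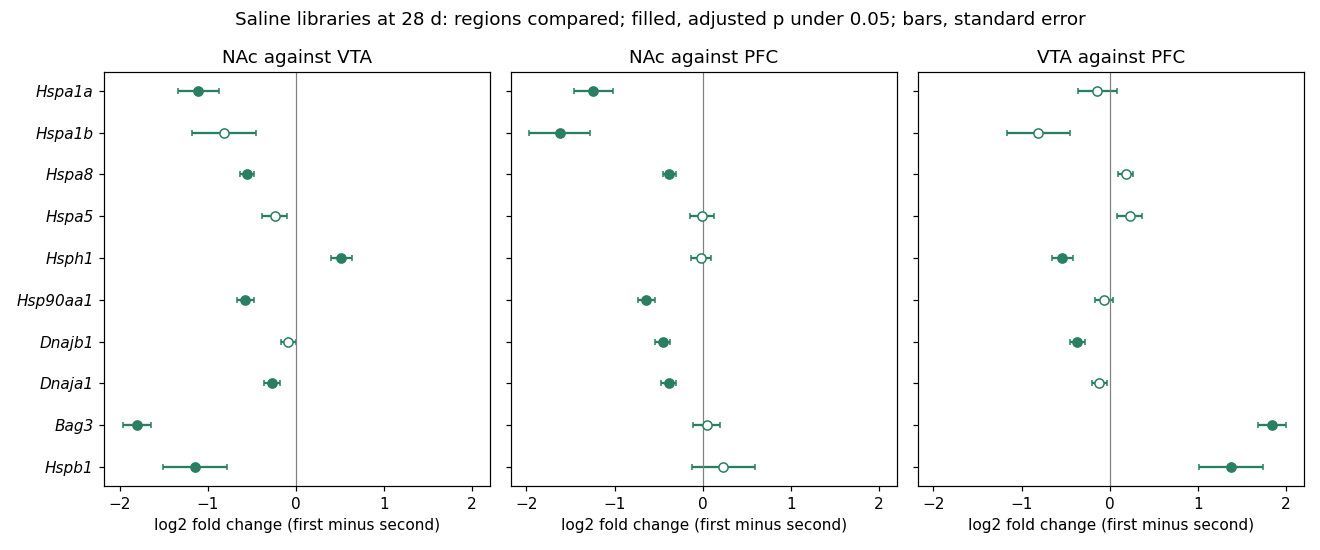
Difference in log2 level between regions for each gene in the saline libraries at 28 days (first region minus second, bars are the standard error, filled points have an adjusted p under 0.05 by edgeR). Bag3 and Hspb1 lie far to the side of the VTA, and every filled NAc against PFC point is below 0.

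Bag3 and Hspb1 were highest in the VTA. Bag3 was 3.48-fold higher there than in the NAc (log2 difference of NAc minus VTA −1.80, SE 0.157, edgeR adjusted p = 2.19e-08) and 3.59-fold higher than in the PFC (adjusted p = 1.79e-08), and its saline libraries in the VTA, from 6.68 RPKM upward, did not overlap those of the NAc (at most 3.14) or the PFC (at most 2.96). Hspb1 was 2.21-fold higher in the VTA than in the NAc (log2 −1.14, SE 0.363, edgeR adjusted p = 0.0110) and 2.60-fold higher than in the PFC (adjusted p = 0.00359). Without the 2 libraries that stand apart these log2 differences were −0.59 (edgeR, adjusted p = 0.027) and 1.11, and among cocaine libraries Hspb1 differed by −0.50 between the NAc and VTA, no longer past the threshold (edgeR, adjusted p = 0.0881). Between the NAc and PFC the difference was 0.04 for Bag3 (95% interval −0.27 to 0.36) and 0.23 for Hspb1 (−0.51 to 0.98). The summed mural and meningeal markers of the same saline libraries were 183 to 240 CPM in the NAc, 186 to 331 CPM in the PFC and 234 to 1841 CPM in the VTA, and their part in the difference between regions was not tested beyond leaving out these libraries.

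Hsp90aa1, Hspa8 and Dnaja1 were lower in the NAc than in both other regions. Hsp90aa1 was lower in the NAc than in the VTA by 0.58 on the log2 scale (edgeR, adjusted p = 5.13e-05) and lower than in the PFC by 0.64 (adjusted p = 2.56e-05). Hspa8 was lower in the NAc by 0.56 and 0.38 against the VTA and PFC, and Dnaja1 by 0.27 and 0.39. None of these 3 differed between the VTA and PFC at an adjusted p under 0.05. Dnajb1 was lower in the NAc and in the VTA than in the PFC, by 0.46 and 0.37.

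Hsph1 was the exception, since its level was lowest in the VTA, 0.52 below the NAc (edgeR, adjusted p = 0.000917) and 0.54 below the PFC (adjusted p = 0.000723). Of the inducible pair, Hspa1a was 2.15-fold lower in the NAc than in the VTA (edgeR, adjusted p = 0.000414) and 2.37-fold lower than in the PFC (adjusted p = 0.000197), and Hspa1b was 3.08-fold lower in the NAc than in the PFC (adjusted p = 0.00107). Hspa5 passed in no pair of regions. Its largest difference was −0.24 for the NAc against the VTA (95% interval −0.53 to 0.06).

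The 2 times were measured in separate tables, and for the VTA and PFC in separate units, so that abstinence, table and processing cannot be told apart. As a description, the saline means of the low members were higher at 28 days. Hspa1a was 2.48 times its 1-day mean in the NAc, 5.25 times in the VTA and 4.41 times in the PFC, Hspa1b 2.32, 6.85 and 4.92 times, and Hspb1 2.90, 4.05 and 2.64 times. Bag3 was 1.43, 1.96 and 1.44 times its 1-day mean, while the ratios of the 6 abundant genes lay between 0.769 and 1.16. The saline libraries of the 2 times did not overlap for Hspa1a and Hspa1b in the VTA and PFC. Nor did they for Bag3 in the NAc and PFC, for Hspb1 in the NAc and for Dnajb1 in the PFC. These ratios and overlaps were not computed over all genes, so they are not shown to be particular to the members.

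Within groups some members varied together. Over the 6 tables the mean Pearson r of library deviations from their group means was 0.91 between Hsp90aa1 and Dnaja1, 0.79 between Hspa8 and Hsph1 and between Hsph1 and Dnaja1, and 0.77 between Hspa8 and Hsp90aa1. It was 0.66 between Hspa1a and Hspa1b, which share sequence, and 0.57 between Bag3 and Hspb1, but 0.34 between Hspa1a and Bag3 and 0.40 between Hspa1b and Bag3. The lowest value was −0.28, between Hsp90aa1 and Bag3. The points of a pair share libraries, normalisation and depth, and these values are a description over 11 or 12 libraries a table.

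**Figure D5:**
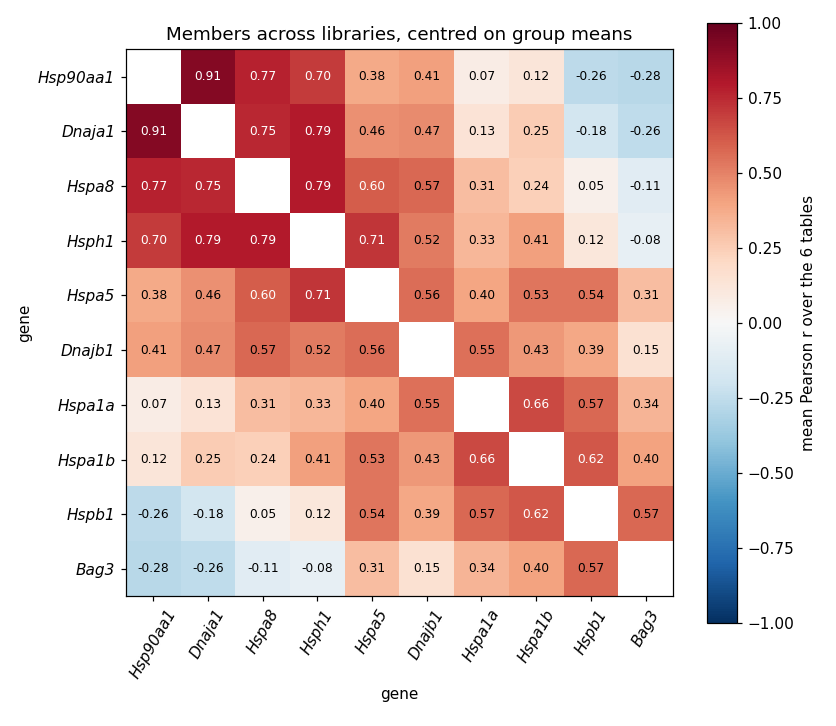
Mean Pearson r over the 6 tables for each pair of genes, from log2 levels centred on group means (colour scale from −1 to 1). One block of high values joins Hsp90aa1, Dnaja1, Hspa8 and Hsph1, a second joins Hspa1a, Hspa1b and Hspb1, and Bag3 has values below 0 with the first block.

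Relations of the other 8 members with the summed log2 level of Hspa1a and Hspa1b were tested in each table, 48 in all, with 100000 permutations. Of these 42 were positive, with a median r of 0.40, and 9 passed an adjusted p of 0.05 by Pearson's r. Such counts were not taken over all genes, so they are not shown to be particular to the members. Only 2 of the 9 also passed by Spearman's rho, both in the PFC at 28 days. Hspb1 had r = 0.909 (n = 12, rho 0.930, permutation p = 6e-05 and 1e-05, the latter the smallest the permutations can give, adjusted p = 0.00288 and 0.00048) and 0.865 without the 2 libraries farthest from the median. Hspa5 had r = 0.836 (n = 12, rho 0.846, permutation p = 0.00064 and 0.00114, adjusted p = 0.0102 and 0.0274) and 0.776 without 2 libraries. Hspb1 passed by r in 3 other tables, at 0.720 in the NAc at 28 days, 0.739 in the VTA at 1 day and 0.770 in the PFC at 1 day (permutation adjusted p = 0.0487, 0.0385 and 0.0299, r of 0.646, 0.637 and 0.524 without 2 libraries), and its median over the tables was 0.73 against −0.0085 for Hsp90aa1. The remaining 4 that passed by r were Bag3 in the VTA at 1 day (0.864), Dnajb1 in the PFC at 1 and 28 days (0.787 and 0.717) and Hsph1 in the PFC at 28 days (0.761).

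The genes outside the 10 whose levels ran most like the inducible pair, by mean r over the 6 tables among 10731 genes, were Fosl2 (0.66), Manf (0.65), Hdac4 (0.65), Jun (0.63), Ahsa2 (0.63), Spry4 (0.63), P4ha1 (0.62) and Gm12940 (0.62). Each had a positive r in all 6 tables, and Fosl2 ranged from 0.53 to 0.80. Among the members that were ranked, Dnajb1 came 32nd and Hspa5 54th on the same measure, while Dnaja1 ranked 1902nd and Hsp90aa1 3597th. Only genes above a minimum level in every table were ranked, which left out Hspb1 and Bag3. The median r of Hspb1 over the tables was 0.73, so Dnajb1 is not shown to be the member most like the pair. Fosl2 and Jun are AP-1 transcription factors, Manf is a secreted protein of the ER stress response and Ahsa2 belongs to the activators of the HSP90 ATPase. No p is attached to this ranking.

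Of 74 other genes of the chaperone network in 8 lists, 0 passed in any cocaine comparison by edgeR or limma. At 28 days in the NAc 60 of 72 tested were fitted above 0, 10 of them at an unadjusted p under 0.05 (6.76% of all genes) and none of the 12 below, beside a median of 0.0045 over all genes. All 10 chaperonin subunits, which fold actin and tubulin or mitochondrial proteins, were among those above 0, with a median of 0.11. At 1 day in the NAc the split was 44 to 28, with 2 at an unadjusted p under 0.05 (4.01% of all genes). In the VTA it was 36 to 36 at 1 day and 40 to 34 at 28 days, with 10 and 3 at an unadjusted p under 0.05 (15.7% and 11.5% of all genes), and in the PFC 56 to 16 and 46 to 28, with 5 and 2 (3.78% and 5.66%).

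The gene with the smallest p of each list is given here. Manf differed by 0.24 in the VTA at 1 day (limma, adjusted p = 0.185), Dnajb5, a J-domain protein, by 0.27 (adjusted p = 0.193), Hspa12b by 0.47 (adjusted p = 0.267) and Hsf1, the heat shock transcription factor, by 0.22 (adjusted p = 0.297). In the VTA at 28 days Bag4 differed by 0.21 and Hspb6 by 0.20 (edgeR, adjusted p = 0.417 and 0.435). In the NAc at 28 days Stip1, the adaptor that joins HSP70 to HSP90, differed by 0.22 and the chaperonin Cct5 by 0.12 (edgeR, adjusted p = 0.593 and 0.690). Between regions, of the 74 genes 11 were higher and 35 lower in the NAc than in the VTA at an adjusted p under 0.05 (edgeR, 62.5% of all genes passed). For the NAc against the PFC 5 were higher and 24 lower (40.7%), and for the VTA against the PFC 24 were higher and 16 lower (57.8%).

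The 3 lists of genes that respond to handling, stress or activity were read beside the members. Plin4, a lipid droplet gene induced by glucocorticoids, rose with cocaine at 1 day in the NAc, VTA and PFC, by 2.57, 2.14 and 2.17 on the log2 scale (adjusted p = 0.0199 by edgeR, 0.0266 and 0.00233 by limma), and Hif3a rose by 1.08 in the NAc (edgeR, adjusted p = 0.0122). The summed glucocorticoid-induced genes were 348 to 558 CPM with cocaine and 301 to 341 CPM with saline in the NAc at 1 day, where no heat shock gene passed. At the same time they were 370 to 863 and 270 to 413 CPM in the VTA and 358 to 551 and 270 to 363 CPM in the PFC, where the groups overlapped, and at 28 days 9 of the 10 were fitted below 0 in each region. The immediate early genes at 1 day were fitted above 0 for 9 of 10 in the NAc, 7 of 7 in the VTA and 10 of 10 in the PFC, 6, 4 and 5 of them at an unadjusted p under 0.05, with summed levels of 189 to 361, 43.1 to 117 and 231 to 459 CPM with cocaine and 177 to 225, 40.8 to 60.1 and 192 to 275 CPM with saline. Both cold-inducible genes were fitted below 0 at 28 days in each region, with medians of −0.17, −0.21 and −0.15 in the NAc, VTA and PFC. In each region 1 of the 2 had an unadjusted p under 0.05 (6.76%, 11.5% and 5.66% of all genes). At 1 day both were below 0 in the NAc, both above 0 in the VTA and 1 on each side in the PFC. The part of these lists in the differences of the members was not tested. No gene of the lists of immediate early genes and of cold-inducible genes passed in any of the 6 comparisons.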

How the data were processed

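Total RNA of each punch was sequenced and, per the labels and the study's methods, the authors aligned reads to mm9 with STAR 2.4.1d and an Ensembl annotation. The strand setting and the counting tool are not given in the sources used here. The authors deposited raw counts per gene for the NAc at both times and for the VTA and PFC at 28 days, and RPKM for the VTA and PFC at 1 day. In the deposited RPKM tables whole reads were recovered for 100% of 23806 VTA and 23353 PFC genes (tolerance 0.01 reads). The authors' columns of fold changes and p-values were not used, nor were 30 columns of other libraries that belong to no sample here.

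Counts were tested with edgeR 4.0.16 (TMM, filterByExpr with a minimum count of 10, quasi-likelihood test) and log2(RPKM + 0.1) with limma 3.58.1 (trend, mean RPKM of at least 0.5), in R 4.3.3, on each whole table, with Benjamini-Hochberg adjustment over all genes tested and a threshold of 0.05. Fold changes on the log2(RPKM + 0.1) scale understate those of low genes. Interactions for the VTA and PFC used limma on log2 values of both tables. RPKM for count tables was TMM-scaled CPM divided by the length that the deposited RPKM imply. Exact permutation tests went through every division of the libraries in Python 3.11.15 with numpy 2.4.6, and Spearman's rho was computed with scipy 1.17.1. DESeq2 1.42.0, edgeR on recovered reads, other filters and pseudocounts, a replicate block and leaving out each library were tried as alternatives. The tests were checked on simulated counts with known fold changes. All 10 members are named. Of each other list, genes past the threshold or else the one with the smallest p are named, and the 8 genes most like Hspa1a and Hspa1b. The members and lists were chosen with earlier results of these data known. A single gene of the marker lists is not reported here.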

Additional observations from a re-analysis of the deposited data

Results flagged for a closer look

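Each of the 120 groups of libraries, 10 genes in 12 groups, was searched for a lowest or highest library that stood far from the rest by Dixon's ratio at the 95% level, and 4 were found, where chance gives about 5%. Bag3 was 1.52 RPKM in 1 cocaine NAc library at 1 day, with the other 5 between 1.89 and 2.01 RPKM. Dnaja1 was 31.4 RPKM in 1 cocaine VTA library at 1 day, the one with 1711 CPM of mural and meningeal markers, with the others between 39.95 and 46.1 RPKM. Hspa5 was 125.1 RPKM in 1 cocaine PFC library at 28 days, the column numbered 3, with the others between 79.8 and 92.2 RPKM. Hsp90aa1 was 224.5 RPKM in 1 saline PFC library at 28 days, the one with 2629 CPM of striatal markers, with the others between 265 and 291 RPKM.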

How the results depend on the processing

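The count of members past the threshold kept its value or stayed within 1.5 times of it in all 260 alternatives run on it. In the cocaine comparisons and interactions it was 0 in each, including an adjusted p under 0.25, the pair Hspa1a and Hspa1b summed, and each library left out in turn. Between regions it ran from 6 to 9 for the NAc against the VTA, was 6 for the NAc against the PFC and ran from 4 to 6 for the VTA against the PFC with libraries left out, and was 8, 6 and 5 by DESeq2. The count over all genes moved more. In the VTA at 1 day limma called 10, edgeR on recovered reads 55 and DESeq2 709, and in the VTA at 28 days edgeR called 0 and DESeq2 73. In the NAc edgeR called 2 and 0 at the 2 times and DESeq2 19 and 11, and DESeq2 called 5 and 2 in the PFC, where limma called 1 and edgeR 0.

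Single genes were followed if a cocaine or VTA interaction difference was at least 0.3, or a cocaine p, fitted or by permutation, was under 0.05. Those past the threshold between regions were followed too. Among these, 4 alternatives reversed a sign, all in the VTA and none past the threshold, with 1 fit of Hspb1 counted under both its names. Members nearer 0 were not counted, such as Hspa1a in the NAc at 1 day, 0.0033 in the main fit and −0.03 with a replicate block. Hspb1 at 28 days ran from −0.81 to 0.013 on the log2 scale with each library left out, and 0.013 was reached without the saline library above 900 CPM of markers. With the marker sum as a covariate, added after seeing the data, Hspb1 and Bag3 at 1 day were −0.21 and −0.10. Dnaja1 and Hspb1 between the NAc and VTA lost the threshold without 1 NAc and 1 VTA saline library (−0.23 and −0.58, edgeR adjusted p = 0.0529 and 0.0860). Leave-one-out ranges for the VTA at 1 day were 0.74 to 1.49 for Hspb1, and for Hspa1b at 28 days 0.0015 to 0.84 in the NAc and 0.0022 to 0.79 in the VTA.

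The labels number libraries 1 to 6 in both treatments at 1 day, without saying that equal numbers are pairs. The r of same-numbered libraries ran from −0.47 to 0.61 in the NAc, −0.28 to 0.46 in the VTA and −0.18 to 0.08 in the PFC. It was over 0.1 in 3, 4 and 0 of 6 pairs, against medians of −0.11, −0.0001 and −0.01 for other numbers. Pairing by number was thus not settled, and the main fits did not use it. With a replicate block 0 members passed in each region at 1 day, and Hspb1 in the VTA had an adjusted p of 0.147 by limma. The block raised the VTA count over all genes from 10 to 60. There the SE fell from 0.532 to 0.322 for Hspb1 and from 0.289 to 0.186 for Bag3. It rose from 0.231 to 0.244 for Hspa1a and from 0.0579 to 0.0641 for Hspa8. No block was possible at 28 days, where the columns carry no numbers from the labels. Depth limits Hspa1b at 1 day, where VTA saline libraries held 5 to 21 reads.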
